A study of Mus musculus with 16 samples.

Results

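Ion channel genes of the calcium, potassium and stretch-gated families were examined for peaks after RNA immunoprecipitation and sequencing (RIP-seq) with THOC5 as the target, in primary smooth muscle cells of mouse vessels. The genes were taken by symbol: every RefSeq gene whose symbol starts with Cacna, Cacnb, Kcn, Trpc, Trpm, Trpv, Itpr or Ryr followed by a letter or digit (Itprid and Itprip genes left out), together with Piezo1, Piezo2, Atp2a2, Atp2b1, Atp2b4, Pkd1 and Pkd2. This rule used no measured value and gave 153 genes, 148 protein-coding and 5 long non-coding RNAs. Of these, 23 had at least 1 peak in at least 1 list, out of 4051 genes with a peak in the series. The symbol rule also took in Trpc4ap, a TRPC4-associated protein that is not itself a channel, which had no peak.

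The THO complex, to which THOC5 belongs, loads onto RNA while it is being transcribed and helps many messenger RNAs to be processed and to leave the nucleus. In vascular smooth muscle, voltage-gated calcium channels let calcium in on depolarisation and inositol trisphosphate receptors release it from internal stores, and calcium then drives contraction through calmodulin and myosin light chain kinase. Potassium channels set the membrane potential that opens or closes the calcium channels, while Piezo, TRP and polycystin channels pass cations in response to stretch, lipids or other signals.

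The series compared 4 conditions, each with 2 THOC5 immunoprecipitates and 2 inputs (16 libraries in all). THOC5 OE Pi cells carried the THOC5 overexpression genotype and were kept in osteogenic medium, GFP OE Pi cells were the GFP counterpart in osteogenic medium (genotype labelled WT), Pi cells were WT in osteogenic medium, and Ctrl cells were WT in growth medium. All were primary cells of the same labelled type. The vector, the level of overexpression, the antibody, the duration of treatment and whether replicates were separate cultures are not stated in the labels, so p-values below measure the spread between these samples, which may be technical. The 8 peak lists of the immunoprecipitates were analysed, and the inputs were not analysed here.

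Each list gives the position of each peak on mm10, a score from the authors and a HOMER annotation. A gene was counted as having a peak when the annotation placed the peak in an exon, intron, untranslated region (UTR), transcript end or non-coding exon of one of its RefSeq transcripts. The lists held 2572 to 4795 peaks, all peaks of a list having 1 width between 415 and 553 bp. Read depth is unknown because the lists give no counts. A peak count reflects both the abundance of a transcript and its recovery, and the lists do not separate them. Of the cell type markers examined, 5 of 10 smooth muscle genes had a peak (Acta2, Tagln, Smtn, Lmod1 and Mylk), against 2 of 5 fibroblast genes, 0 of 5 endothelial genes and 0 of 5 leukocyte genes. Myh11, Cnn1, Des, Myocd and Cald1 had none. Mylk had 64 peaks over all 8 lists, but Acta2 had 3 peaks, Smtn 2, and Tagln and Lmod1 1 each. The fibroblast genes with a peak, Pdgfra and Col1a2, had 1 each. Both Pi lists held peaks on rRNA repeats, 17 in Pi replicate 1 and 28 in Pi replicate 2, against 0 and 1 in the Ctrl lists and 0 in every OE list, and 0 channel gene peaks lay on such a repeat.

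Most channel genes had no peak, and 4 calcium channel genes held most of the peaks that were found. Itpr2, Cacna1c, Itpr1 and Cacna1g together carried 346 of the 417 channel gene peaks, or 83.0%. They were the 4 channel genes with a peak in all 8 lists, 17.4% of the 23 genes, where 9.87% of all genes with a peak were found in all 8. At the other end, 8 of the 23 (34.8%) had a peak in 1 list only, where 37.2% of all genes with a peak did. The median gene with a peak had 4 peaks summed over lists among the channel genes and 2 over all genes. Channel genes with a peak made up 15.5% of the protein-coding genes of the rule, against 18.0% of all protein-coding genes. Among peaks at or above the median score of their list, 10 channel genes had a peak in place of 23, with Kcnt2, Cacna1a, Cacna2d1, Trpm4 and Kcnj4 among those no longer counted.

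**Figure D1:**
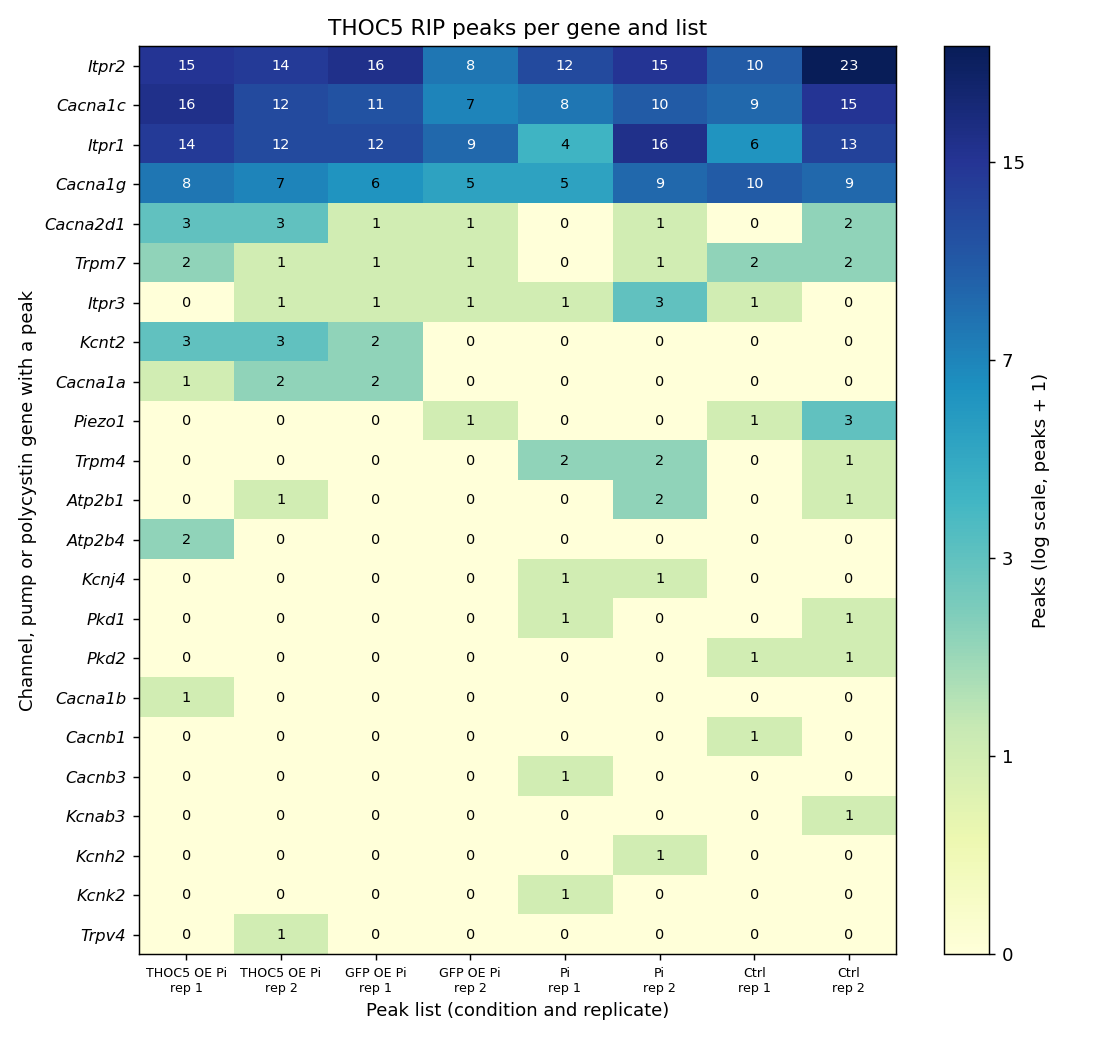
Number of THOC5 RIP peaks in each of the 23 channel, pump and polycystin genes with a peak (rows, by total) in each of the 8 lists (columns, by condition and replicate), with the count printed in each cell and colour on a log scale. Itpr2, Cacna1c, Itpr1 and Cacna1g have 4 or more peaks in every list, and no other gene has more than 3 in any list.

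The intracellular release channels held the most peaks. These channels let calcium out of the endoplasmic or sarcoplasmic reticulum, the Itpr genes in response to inositol trisphosphate and the Ryr genes in response to calcium itself. The 3 Itpr genes all had peaks and the 3 ryanodine receptor genes Ryr1, Ryr2 and Ryr3 had none. Together the Itpr genes held 207 peaks, 49.6% of the channel gene total.

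Itpr2, a type of inositol trisphosphate receptor, lies on the minus strand of chromosome 6 (mm10, chr6:146108299-146502258) and spans 394 kb. It had 15 and 14 peaks in the THOC5 OE Pi lists, 16 and 8 in the GFP OE Pi lists, 12 and 15 in the Pi lists, and 10 and 23 in the Ctrl lists. The highest count was in a Ctrl list and the other Ctrl list was among the lowest, so the conditions overlapped. With 113 peaks in all, it ranked 16th among all genes with a peak.

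Itpr1, the receptor gene on the plus strand of the same chromosome (chr6:108213083-108551116, 338 kb), had 14 and 12 peaks in the THOC5 OE Pi lists, 12 and 9 in the GFP OE Pi lists, 4 and 16 in the Pi lists, and 6 and 13 in the Ctrl lists. Its lowest and highest counts were both in Pi lists. It held 86 peaks and ranked 28th among all genes with a peak. Itpr3, the third receptor gene of the family (chr17:27057002-27122223, 65.2 kb), is shorter and had fewer peaks. There were 0 and 1 peaks in the THOC5 OE Pi lists and 1 and 1 in GFP OE Pi. Pi had 1 and 3, and Ctrl 1 and 0. Its density was 1.53 peaks per list per 100 kb, against 3.18 in Itpr1 and 3.59 in Itpr2.

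The voltage-gated calcium channel pores came next. Of the 10 Cacna1 genes, Cacna1c, Cacna1g, Cacna1a and Cacna1b had peaks, 153 in all (36.7% of the channel gene peaks). Cacna1c encodes the pore of the L-type channel that carries the main depolarisation-driven calcium entry of arterial smooth muscle. It spans 610 kb on the minus strand (chr6:118587240-119197384) and had 16 and 12 peaks in the THOC5 OE Pi lists, 11 and 7 in the GFP OE Pi lists, 8 and 10 in the Pi lists, and 9 and 15 in the Ctrl lists. Both THOC5 OE Pi lists were above both GFP OE Pi lists, while Ctrl replicate 2 lay between the 2 THOC5 OE Pi lists.

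Cacna1g, the pore of a low-voltage-activated T-type channel, is the shortest of the 4 genes (chr11:94408391-94474400, minus strand, 66.0 kb). It had 8 and 7 peaks in THOC5 OE Pi, 6 and 5 in GFP OE Pi, 5 and 9 in Pi, and 10 and 9 in Ctrl. Its density of 11.2 peaks per list per 100 kb was the highest of the 4, against 3.59 in Itpr2, 3.18 in Itpr1 and 1.80 in Cacna1c. Only 1.56% of all genes with a peak had as many peaks as Cacna1g or more.

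The other pore genes were weakly represented. Cacna1a, the pore of the P/Q-type channel known from neurons, had 1 and 2 peaks in the THOC5 OE Pi lists and 2 and 0 in the GFP OE Pi lists, and none in the Pi or Ctrl lists. These peaks were near the bottom of their lists: the best peak of the gene reached a score percentile (the rank of its score within its own list, with 100 at the top) of 2.10 to 4.79. Cacna1b, the N-type pore, had 1 peak in THOC5 OE Pi replicate 1. No peak was assigned to Cacna1d, Cacna1e, Cacna1f, Cacna1h, Cacna1i or Cacna1s, although Cacna1d spans 451 kb.

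Among the 8 auxiliary subunit genes, which govern trafficking and gating of the pores, 3 had peaks. Cacna2d1, the alpha-2/delta-1 subunit, had 3 and 3 peaks in THOC5 OE Pi, 1 and 1 in GFP OE Pi, 0 and 1 in Pi, and 0 and 2 in Ctrl. Of its 11 peaks, 4 made up a single site in the last of its 39 exons, in the 3′ UTR (chr5:16370746-16371664), found in both THOC5 OE Pi lists, Pi replicate 2 and Ctrl replicate 2 at percentiles of 32.9 to 46.9. Cacnb1 and Cacnb3, beta subunits, had 1 peak each. The Cacnb3 peak, in the 3′ UTR within exon 12 of 12 (chr15:98643493-98644046), reached the 97.0th percentile of Pi replicate 1 and had no overlapping peak in any other list. Of the 1455 peaks at or above the 95th percentile of their lists, 73 (5.02%) were alone in the same way.

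Potassium channel genes were the largest family and the least represented. Of 98 Kcn genes, 5 had a peak, 13 peaks in all (3.12% of the channel gene total). Kcnt2, a sodium-activated potassium channel, had 3 and 3 peaks in the THOC5 OE Pi lists and 2 and 0 in the GFP OE Pi lists, against none in the Pi or Ctrl lists, with a best percentile of 17.2 to 33.5. Kcnj4, an inward rectifier, had 1 peak in each Pi list and none elsewhere, both at 1 site in the last of its 2 exons (chr15:79484787-79485340), at percentiles of 12.0 and 19.7. The voltage-gated channel gene Kcnh2, the auxiliary subunit gene Kcnab3 and the mechanically gated background channel gene Kcnk2 had 1 peak each, Kcnh2 in Pi replicate 2 at a percentile of 1.50, Kcnab3 in Ctrl replicate 2 at 13.0 and Kcnk2 in Pi replicate 1 at 9.51. The large-conductance calcium-activated channel gene Kcnma1, a main repolarising channel of arterial muscle that spans 713 kb, had no peak, nor did its smooth muscle subunit gene Kcnmb1, the Kv genes Kcna5 and Kcnq5, or the genes of the ATP-sensitive channel pores Kcnj8 and Kcnj11.

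TRP channels, pumps and stretch-gated channels had few peaks, some of them strong. Trpm7, a channel fused to a kinase that carries magnesium and calcium, had 2 and 1 peaks in THOC5 OE Pi, 1 and 1 in GFP OE Pi, 0 and 1 in Pi, and 2 and 2 in Ctrl. Its site at exon 35 of 39 (chr2:126797306-126797794) had a peak at the 90.0th percentile in THOC5 OE Pi replicate 1, the 90.3rd in GFP OE Pi replicate 1, and the 84.8th and 90.0th in the Ctrl lists. Trpm4, a calcium-activated cation channel, had no peak in the OE lists, 2 and 2 peaks in Pi and 0 and 1 in Ctrl, and its best percentile was 3.73 to 13.1. Trpv4, a channel opened by osmotic stress and lipids, had 1 peak in THOC5 OE Pi replicate 2, and Trpc1 and Trpc6, TRPC channels of smooth muscle, had none.

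Piezo1, which opens when the membrane is stretched, had the highest ranked peak found in more than 1 list among the channel genes. It had 0 and 0 peaks in THOC5 OE Pi, 0 and 1 in GFP OE Pi, 0 and 0 in Pi, and 1 and 3 in Ctrl. A peak in exon 8 of 51 (chr8:122501342-122501785, mm10) ranked at the 95.5th and 96.4th percentiles of the 2 Ctrl lists and was in no list from osteogenic medium. Piezo1 was thus present in both Ctrl lists and in 1 of the 6 osteogenic lists, where its single peak lay in intron 1 at the 67.5th percentile. Piezo2 (378 kb) had no peak. Of the polycystin genes, whose products form a complex of the primary cilium, Pkd2 had 1 peak in each Ctrl list and none in osteogenic medium, at different places in the gene, and Pkd1 had 1 peak in Pi replicate 1 and 1 in Ctrl replicate 2. The share of all sites or genes with a peak in both Ctrl lists and in no osteogenic list was not computed. The patterns of the Piezo1 exon 8 site and of Pkd2 therefore have no background and were not tested.

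Of the 3 calcium pump genes, Atp2a2, which refills the sarcoplasmic reticulum, had no peak. Atp2b1, a plasma membrane pump, had 0 and 1 peaks in THOC5 OE Pi, 0 and 0 in GFP OE Pi, 0 and 2 in Pi, and 0 and 1 in Ctrl. Atp2b4, another plasma membrane pump, had 2 peaks, both in THOC5 OE Pi replicate 1. Atp2b1 also had peaks in the promoter class of the annotation, which the gene rule does not count: 1 in each THOC5 OE Pi list, at percentiles of 27.2 and 29.4, and 1 in GFP OE Pi replicate 2, at 8.38. It was the only gene of the rule with a peak in that class. All 3 peaks covered an annotated transcript start of Atp2b1, which is shown because it is the start that these peaks have in common. The stretch is chr10:98915137-98915166 on the plus strand (RefSeq, GRCm38.p6), with the first 15 bases of the transcript that starts there in capitals. Another annotated transcript of the gene starts upstream on the same strand, so the lower-case bases also lie downstream of a start.
Atp2b1 start under the peaks: ccgcctcctcgcggtGCAGCGTGAGTAGGG
That upstream start, chr10:98914627-98914656 on the plus strand, written in the same way, was covered by none of the 3 peaks.
Atp2b1 upstream start: ctcaggctccccgcgGGCCGCGTCACGTGA
The 300-base window around the start under the peaks, 250 bases before it and 50 after, had a GC content of 79.3%, against a median of 52.7% over 32851 RefSeq windows of the same length, of which 1.30% had at least that content. The window around the upstream start had the same GC content of 79.3%, so this value does not set the 2 starts apart. The peak of THOC5 OE Pi replicate 2 overlapped that upstream window but not the stretch printed for it. Windows were at hand for 18 of the 23 channel genes with a peak and 117 of the 153.

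Several of the longest channel genes had no peak. Among protein-coding genes of the rule longer than 300 kb, 6 of 28 had a peak (21.4%), against 34.3% of all 557 protein-coding genes of that length. Above 100 kb, 9 of 49 had one (18.4%), against 41.1% of 2429. The long channel genes without a peak include Kcnip4 (1136 kb), Trpm3, Cacna2d3, Kcnma1, Kcnq5, Ryr2 and Ryr3, several of which are best known from neurons or heart. These shares are descriptions with no test. Transcript levels were not measured in these lists.

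**Figure D2:**
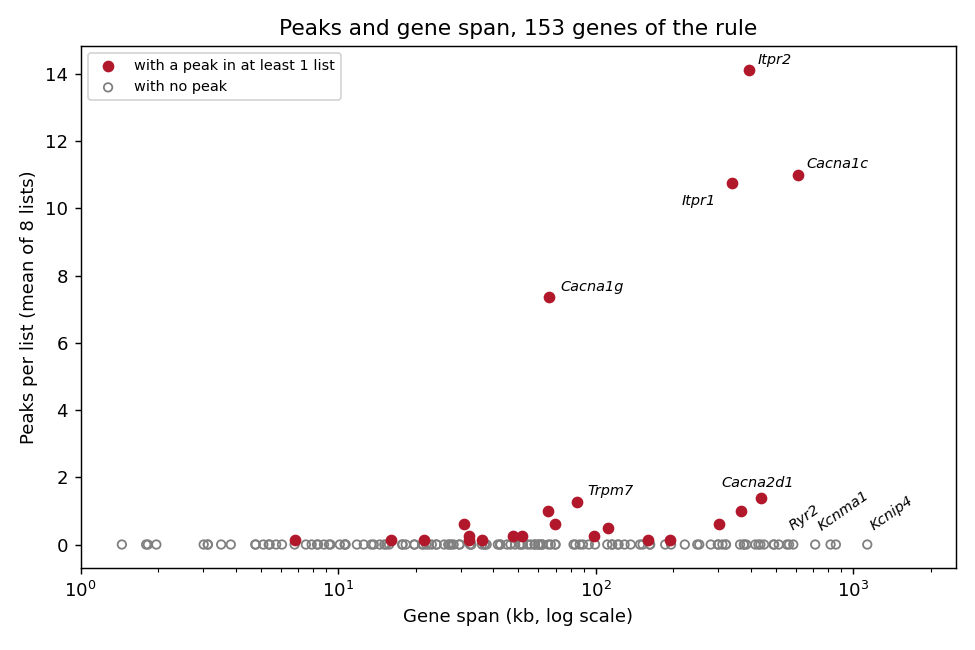
Mean number of peaks per list over the 8 lists (y axis) against gene span in kb on a log scale (x axis) for the 153 genes of the rule, with filled points for genes with a peak and open points for genes without. Itpr2, Cacna1c, Itpr1 and Cacna1g stand above 7 peaks per list, while Kcnma1, Ryr2 and Kcnip4, longer than most of the others, lie at 0.

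Peaks of the different lists fell repeatedly on the same places. Joining overlapping peaks gave 144 sites on the channel genes, of which 8 were present in all 8 lists (5.56%, against 2.64% of the 11927 sites on all genes) and 58 in 1 list (40.3%, against 49.1%). Itpr2 held 4 of the 8 shared sites, Cacna1g 3 and Itpr1 1. In Itpr2 they were in exon 1, exon 7 and exon 34 of 56 and in intron 12 of 56. A site is named here by 1 class, although its peaks could be classed differently between lists. The exon 7 site was placed in an intron in both THOC5 OE Pi lists, GFP OE Pi replicate 2 and Pi replicate 1, and in an exon in the other lists. The exon 1 and exon 34 sites also changed class between lists. The exon 7 site (chr6:146417436-146418334) was the highest ranked of these 4 in every list, at percentiles of 86.3 and 84.6 in THOC5 OE Pi, 78.1 and 77.4 in GFP OE Pi, 72.0 and 81.5 in Pi, and 71.0 and 78.2 in Ctrl. Because the lists differ in length, these percentiles place a peak within its own list and are not compared between conditions.

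In Cacna1g the shared sites were exon 8 of 35 (chr11:94459156-94459709), intron 12 of 34 and the last exon, exon 35 of 35 (chr11:94408958-94409691). The intron 12 site was placed in an exon in GFP OE Pi replicate 1, Pi replicate 1 and Ctrl replicate 2. Exon 8 ranked at percentiles of 80.2 and 82.3 in THOC5 OE Pi, 77.1 and 72.6 in GFP OE Pi, 81.3 and 86.4 in Pi, and 77.7 and 87.2 in Ctrl. The Itpr1 shared site was in intron 34 of 61 (chr6:108405531-108406094), at percentiles of 52.6 to 80.0. Cacna1c had 25 sites and none in all 8 lists. Its most widely shared sites, in introns 17, 20 and 40 of 46 and in exon 13 of 48, were each in 7 lists. The intron 17 site was placed in an exon in both Ctrl lists, and the exon 13 site in an intron in THOC5 OE Pi replicate 2 and Pi replicate 1.

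A site at the start of Itpr1 divided the lists by medium. It lies in intron 1 of 61, 0.452 kb from the 5′ end of the gene (chr6:108213130-108213939), and had a peak at percentiles of 76.5 and 75.4 in THOC5 OE Pi, 64.1 and 66.8 in GFP OE Pi, and 58.0 and 51.6 in Pi, with no peak in either Ctrl list. All 6 osteogenic lists therefore had the site and both growth-medium lists lacked it. The peak of Pi replicate 2 at this site was placed in the 5′ UTR. The pattern was noticed after the values were seen, and 21 of the 11927 sites on all genes (0.176%) had it, 1 of them among the 144 channel gene sites. A site in the same place of Itpr3, in intron 1 of 57 (chr17:27057506-27058125), was present in THOC5 OE Pi replicate 2 and in both lists of GFP OE Pi and of Pi, and in no Ctrl list.

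**Figure D3:**
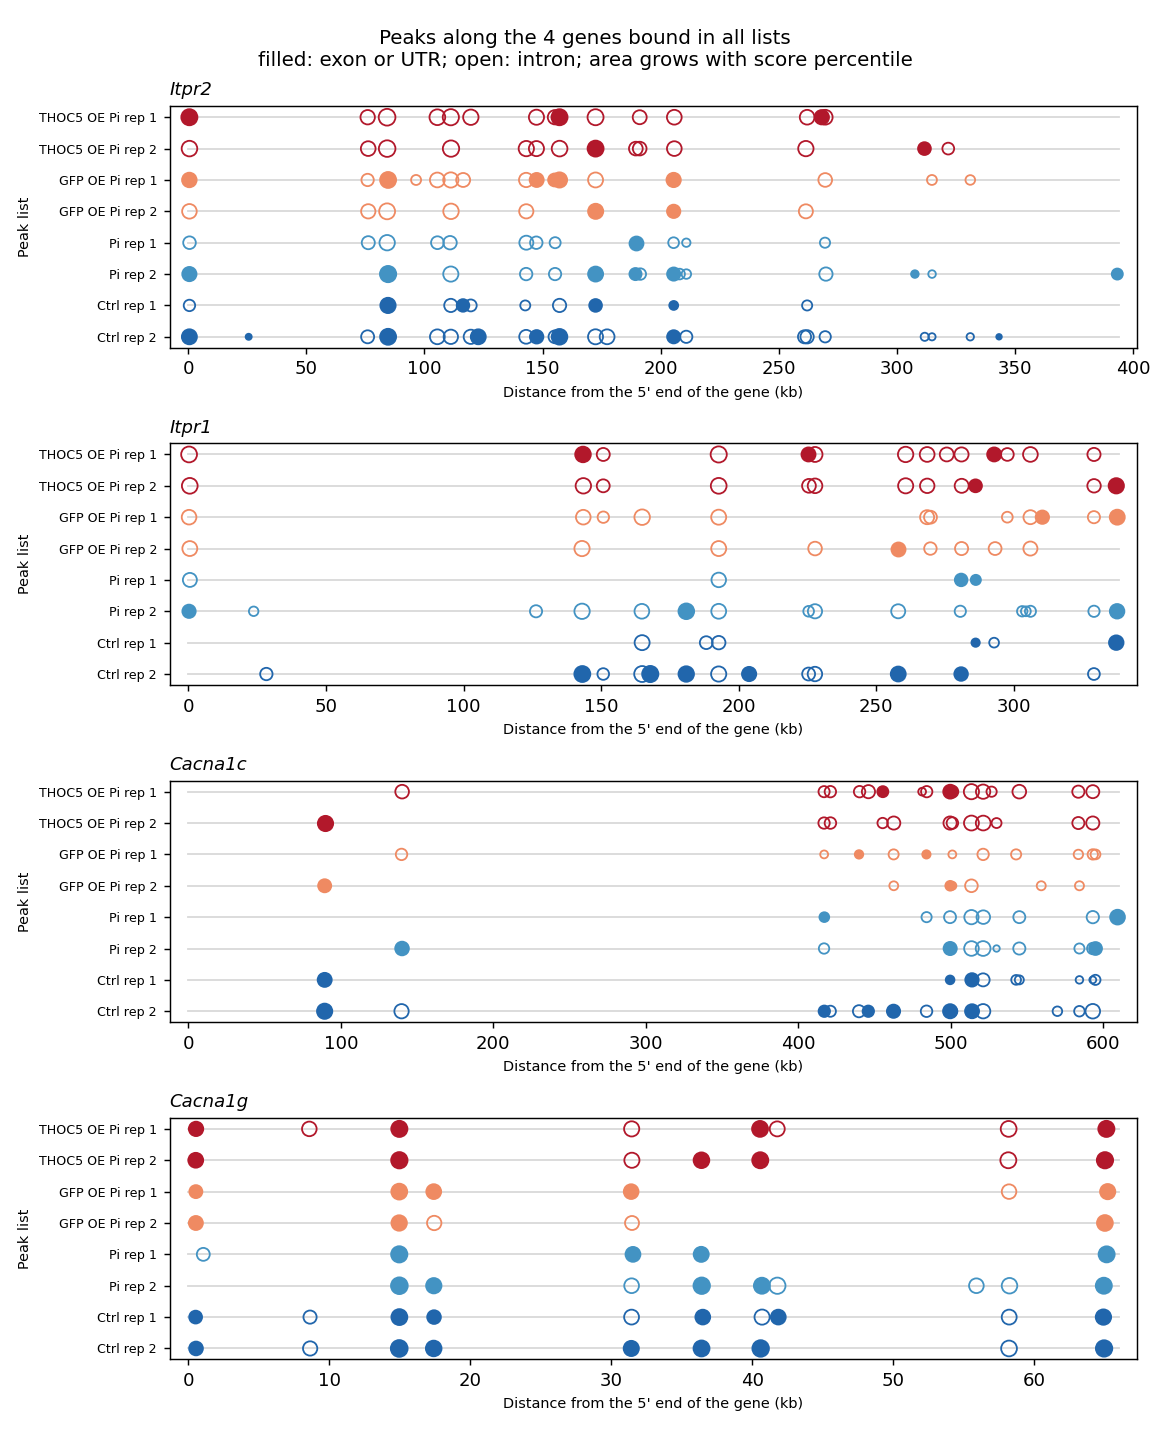
Peaks along Itpr2, Itpr1, Cacna1c and Cacna1g, with distance from the 5′ end of the gene in kb on the x axis and the 8 lists on the y axis, coloured by condition. Filled circles are peaks in exons or UTRs, open circles are peaks in introns, and the area grows with the score percentile within the list; the Itpr1 panel shows the site at its 5′ end in the 6 osteogenic lists and not in the Ctrl lists.

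Most channel gene peaks lay in introns. Of the 417 peaks, 275 were in introns (65.9%, against 58.5% of the 28000 peaks on all genes), 120 in exons, 14 in 3′ UTRs and 8 in 5′ UTRs. The 4 leading genes differed: 76.1% of Cacna1c peaks, 75.6% of Itpr1 peaks and 70.8% of Itpr2 peaks were intronic, against 33.9% of Cacna1g peaks. Repeats were annotated under 26 channel gene peaks (6.24%, against 7.88% over all genes), 14 of them in Itpr2.

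The first comparison asked whether channel genes took up a different part of the THOC5 lists between conditions. Channel gene peaks made up 1.41% and 1.34% of all peaks in THOC5 OE Pi, 1.40% and 1.28% in GFP OE Pi, 1.35% and 1.61% in Pi, and 1.58% and 1.50% in Ctrl. The 95% Wilson intervals of single lists, which cover counting error only, reached from 0.915% at the lowest to 2.13% at the highest, and those of all lists overlapped. The test found no grouping of the lists by condition (exact permutation test over all arrangements, one-sided, p = 0.343). The mean share was lower in Pi than in Ctrl by an amount within the spread of the lists (1.48% ± 0.182 in Pi against 1.54% ± 0.052 in Ctrl, SD, n = 2 each, two-sided exact permutation p = 1).
The differences were likewise within the spread between THOC5 OE Pi and GFP OE Pi (1.38% ± 0.0447 against 1.34% ± 0.0836, exact permutation p = 0.667) and between GFP OE Pi and Pi (1.34% against 1.48%, exact permutation p = 0.667). With 2 lists a side, these tests cannot give a p below 0.333. The size of these differences changed with the peaks counted. For THOC5 OE Pi against GFP OE Pi the difference was 0.0338 percentage points over whole lists, 0.428 with every list cut to 2572 peaks and 0.249 among peaks at or above the median score (exact permutation p = 0.333 for both). For Pi against Ctrl it was -0.0591 over whole lists, -0.156 in cut lists (exact permutation p = 0.667) and -0.375 at or above the median score (exact permutation p = 0.333). For GFP OE Pi against Pi it was -0.137 over whole lists, -0.253 in cut lists (exact permutation p = 0.333) and 0.197 at or above the median score (exact permutation p = 0.667). Set together, the 4 OE lists averaged 1.36% and the 4 unmodified lists of Pi and Ctrl 1.51%, a difference of -0.150 percentage points (exact permutation p = 0.0857, smallest possible 0.0286, adjusted p = 0.857 over the 10 planned tests). The OE lists are all from osteogenic medium and the Ctrl lists on the other side are not, so overexpression and medium cannot be told apart in it.

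Between 8 and 12 channel genes had a peak in a list. There were 10 and 11 such genes in THOC5 OE Pi, 9 and 8 in GFP OE Pi, 10 and 11 in Pi, and 9 and 12 in Ctrl, out of 1231 to 2093 genes with a peak in a list. As a share of all genes with a peak they made up 0.606% and 0.652% in THOC5 OE Pi, 0.632% and 0.650% in GFP OE Pi, 0.649% and 0.575% in Pi, and 0.703% and 0.573% in Ctrl. The conditions overlapped, and none of the 5 tests of this share passed (exact permutation p = 0.962 over the 4 conditions and 0.667 to 1 for the pairs, each adjusted p = 1 over the 10 planned tests).

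**Figure D4:**
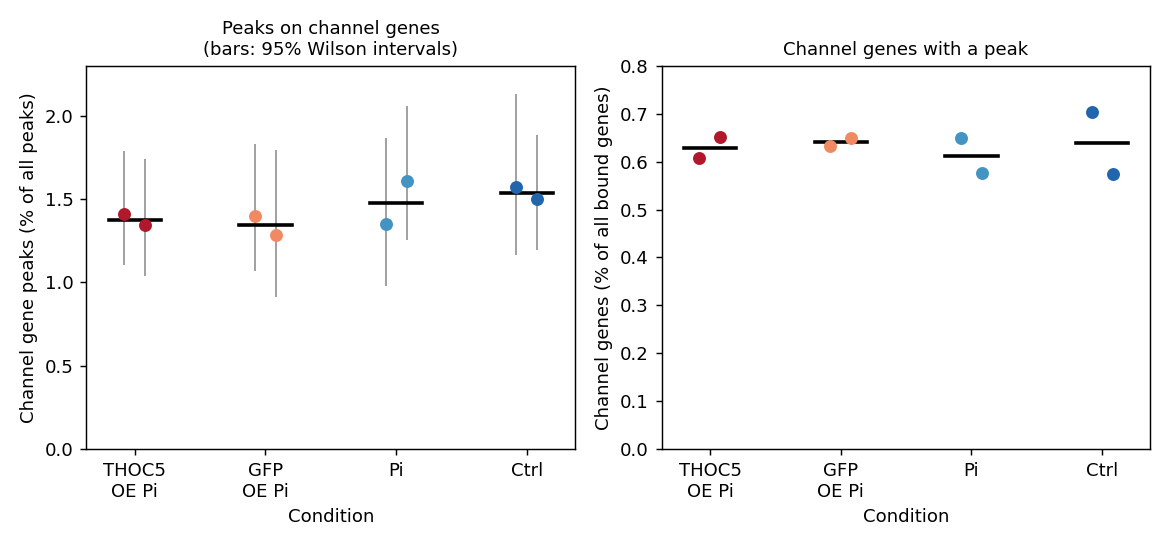
Channel gene peaks as a percent of all peaks (left, with 95% Wilson intervals) and channel genes as a percent of all genes with a peak (right), 1 point per list, with a line at the mean of the 2 lists of each condition. Shares lie between 1.28% and 1.61% on the left and between 0.573% and 0.703% on the right; on the left both Ctrl lists lie above all 4 OE lists, within the intervals, and on the right all conditions overlap.

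For single genes a call was made where every list of one condition had more peaks than any list of the other, which with 2 lists a side is a description and no test. The share of all genes with a peak in the lists compared that met the same rule stands beside each count over whole lists. That share was not computed for lists that were cut, limited to some peaks or left out. Channel gene counts in those settings therefore have no background. Pi against Ctrl, the effect of osteogenic medium in unmodified cells, had 18 channel genes with a peak in those lists. Of these, 2 were higher in Pi (Kcnj4 and Trpm4), where 4.11% of all genes were higher, and 3 were lower (Piezo1, Pkd2 and Trpm7), where 6.71% of all genes were lower. Kcnj4 had 1 and 1 peaks in Pi against 0 and 0 in Ctrl, and Trpm4 had 2 and 2 in Pi against 0 and 1 in Ctrl. Each of the 5 calls rests on 1 to 3 peaks in a list of the higher condition. When all lists were cut to their 2572 best peaks, no channel gene was higher in Pi. With a list left out, 1 list stands on a side and the rule is easier to meet, so the counts stay or rise. Those counts are listed only with the alternatives in processing and are not read as differences.

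THOC5 OE Pi against GFP OE Pi, the effect of THOC5 overexpression in osteogenic medium, had 14 channel genes with a peak. The 4 higher in THOC5 OE Pi were the calcium channel genes Cacna1c, Cacna1g and Cacna2d1 and the potassium channel gene Kcnt2, where 14.5% of all genes were higher, and 0 were lower, where 1.63% of all genes were lower. The THOC5 OE Pi lists were also the longer ones, with 4618 and 4240 peaks against 3711 and 2572. With every list cut to the length of the shortest, 1 channel gene was higher in THOC5 OE Pi in place of 4, and among peaks in exons and UTRs alone 0 were. The share of all genes was not computed in these settings, so the fall cannot be set against that over all genes. Counts with a list left out are not read as differences, for the reason stated for Pi against Ctrl.

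GFP OE Pi against Pi, which sets GFP overexpression beside unmodified cells in the same medium, had 17 channel genes with a peak. None was higher in GFP OE Pi, where 7.05% of all genes were higher, and 2 were lower (Kcnj4 and Trpm4), where 8.19% of all genes were lower. This comparison shares the Pi lists with that of Pi and Ctrl. Kcnj4 had 0 and 0 peaks in GFP OE Pi against 1 and 1 in Pi, and Trpm4 had 0 and 0 in GFP OE Pi against 2 and 2 in Pi. Counts with a list left out are again not read as differences. With lists cut to 2572 peaks, no channel gene was lower in GFP OE Pi. Over the 4 OE lists against the 4 unmodified lists, 0 of the 23 channel genes were higher in every OE list, where 1.83% of all genes were, and 0 were lower, where 0.839% of all genes were. Without GFP OE Pi replicate 2, 2 were higher, and 1 was lower without Pi replicate 1 or without Ctrl replicate 1, with no share of all genes computed beside these counts.

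The share of channel gene peaks in introns differed in level between the conditions, and was looked at and tested only after these values had been seen. It was 76.9% and 77.2% in THOC5 OE Pi, 65.4% and 72.7% in GFP OE Pi, 66.7% and 60.7% in Pi, and 53.7% and 55.6% in Ctrl. The lists of THOC5 OE Pi were the highest and those of Ctrl the lowest, and GFP OE Pi and Pi overlapped. Over the peaks of all other genes the share was 61.3% and 62.4% in THOC5 OE Pi, 57.4% and 63.8% in GFP OE Pi, 58.7% and 56.3% in Pi, and 52.9% and 54.3% in Ctrl (exact permutation p = 0.124 over the 4 conditions). The channel genes exceeded the other genes by 15.6 and 14.8 percentage points in THOC5 OE Pi, 7.94 and 8.97 in GFP OE Pi, 7.98 and 4.33 in Pi, and 0.715 and 1.29 in Ctrl.

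Both the share itself and its excess over other genes gave p = 0.019 over the 4 conditions (exact permutation test), which was 0.19 after Benjamini-Hochberg adjustment over all 20 tests run, so no test passed. The smallest p this exact permutation test can give is 0.00952, so no test could have passed alone after that adjustment. OE lists averaged 73.1% against 59.1% in unmodified lists, a difference of 13.9 points (exact permutation p = 0.0571, adjusted p = 0.286). The unmodified side holds the Ctrl lists from growth medium, so overexpression and medium cannot be told apart here either. Between GFP OE Pi and Pi, both in osteogenic medium, the difference was 5.39 points (exact permutation p = 0.667). The 4 leading genes together had the same order of condition means, with 77.4% and 77.8% intronic peaks in THOC5 OE Pi, 66.7% and 72.4% in GFP OE Pi, 69.0% and 64.0% in Pi, and 57.1% and 55.0% in Ctrl. Cacna1c had 14 of 16 and 11 of 12 peaks in introns in THOC5 OE Pi, against 9 of 11 and 5 of 7 in GFP OE Pi. In the unmodified cells it had 6 of 8 and 7 of 10 in Pi, against 6 of 9 and 9 of 15 in Ctrl. The other 3 leading genes did not have this order one by one. The highest intron share of Itpr2 was in Pi replicate 1 (91.7%), against 80.0% and 85.7% in THOC5 OE Pi. For Itpr1 it was 78.6% and 83.3% in THOC5 OE Pi against 83.3% and 88.9% in GFP OE Pi. Cacna1g had 4 of 8 and 2 of 7 peaks in introns in THOC5 OE Pi, and 4 of 10 and 2 of 9 in Ctrl, which overlap. The other channel genes, with 4 to 12 peaks a list, ranged from 33.3% to 75.0%. HOMER gives each peak 1 class from its position, so a peak across an exon border counts once, and peak width differed between lists. Peak width was 473 and 538 bp in THOC5 OE Pi and 420 and 529 bp in GFP OE Pi. It was 553 and 439 bp in Pi and 443 and 415 bp in Ctrl. Every list of 473 bp or wider had a higher intron share than every list of 443 bp or narrower. This held for channel genes and for other genes. Both THOC5 OE Pi lists were among the wider ones and both Ctrl lists among the narrower. At several shared sites, such as the exon 7 site of Itpr2, the class also differed between lists. The part of peak width and of these class changes in the result was not tested.

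**Figure D5:**
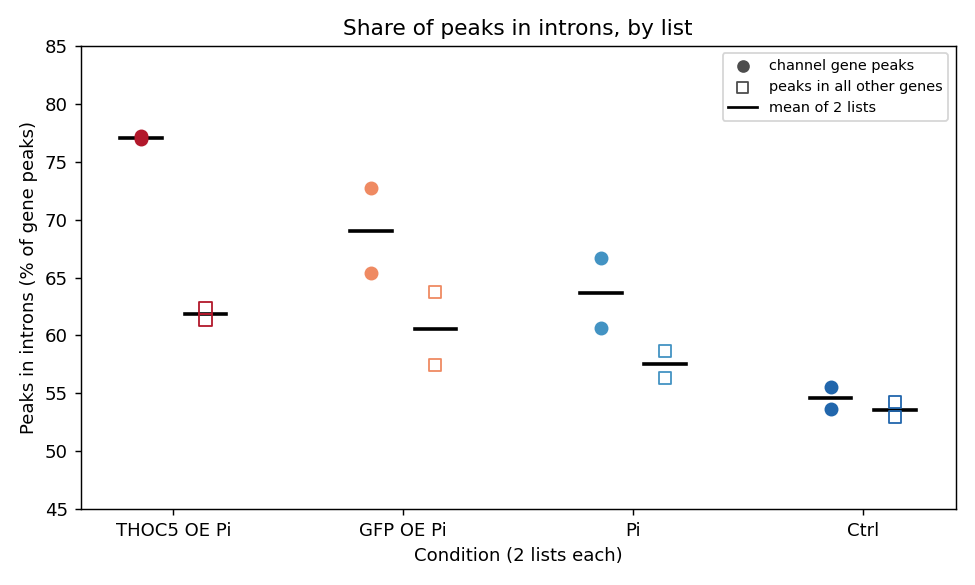
Percent of gene peaks placed in introns for channel gene peaks (filled circles) and for peaks in all other genes (open squares), 1 point per list, with a line at the mean of the 2 lists of a condition; the y axis starts at 45%. Channel gene shares are 76.9% and 77.2% in THOC5 OE Pi and 53.7% and 55.6% in Ctrl, while those of other genes lie between 52.9% and 63.8%.

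Other genes of calcium handling, 70 genes outside the symbol rule, gave a setting for these values. Of them 23 had a peak (32.9%, against 18.0% of all protein-coding genes) and 2 had one in all 8 lists. These shares were not matched for gene length and were not tested. Several of the 70 genes are long, such as Mylk (257 kb) and Plcb4 (356 kb). Of all protein-coding genes above 100 kb, 41.1% had a peak. Mylk, the myosin light chain kinase that starts smooth muscle contraction, had 11 and 9 peaks in THOC5 OE Pi, 8 and 5 in GFP OE Pi, 7 and 7 in Pi, and 6 and 11 in Ctrl. Plcb4, a phospholipase C that makes inositol trisphosphate, had 3 and 3 in THOC5 OE Pi, 2 and 2 in GFP OE Pi, 3 and 4 in Pi, and 4 and 3 in Ctrl. Orai1, the pore of store-operated calcium entry, had none.

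By the same description, 4 of the 16 calcium handling genes with a peak in those lists were higher in THOC5 OE Pi than in GFP OE Pi (Mylk, Plcb1, Plcb4 and Plce1) and 0 were lower, where 14.5% and 1.63% of all genes were, the THOC5 OE Pi lists being the longer ones. For Pi against Ctrl, 1 of 18 was higher in Pi (Jph1, a protein that holds the store membrane to the plasma membrane) and 0 were lower, where 4.11% and 6.71% of all genes were. For GFP OE Pi against Pi, 1 of 17 was higher (Plce1) and 3 were lower (Stim1, Jph1 and Plcb4), where 7.05% and 8.19% of all genes were. Plce1, a phospholipase C that responds to Ras proteins, had 2 and 2 peaks in THOC5 OE Pi and 1 and 1 in GFP OE Pi, against none in the Pi and Ctrl lists. Its best percentile was 0.364 to 24.1.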

How the data were processed

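THOC5 RIP-seq was measured in primary mouse vascular smooth muscle cells. Samples were grouped by their titles, and each list was joined to its sample by the condition abbreviation and number in its file header. The authors deposited 1 peak list per immunoprecipitate, annotated on mm10 with HOMER's annotatePeaks.pl per the file headers. The submitters' processing notes name FastQC, Bowtie2, MACS2 and SAMtools. Tool versions, the peak caller's settings and how inputs were used are not stated in the labels or headers. The deposited score has no stated scale, so it was used only to rank peaks within a list, as a percentile. Read depth is unknown, so precision is limited by the number of lists and of peaks.

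Peaks were assigned to genes through the RefSeq transcript in the annotation, of which 5224 of 5234 (99.8%) matched a RefSeq (GRCm38.p6) gene symbol. Peaks of a gene sharing at least 1 base were joined into a site. Shares were compared with exact permutation tests over lists, with Benjamini-Hochberg adjustment over 10 planned tests. A further 10 tests on introns were added after the values were seen, and all 20 were then adjusted together. Genes were named when they had a peak in at least 6 lists, were among the 10 with the most peaks, were present in both lists of a condition but in neither of its counterpart, or belonged to a list of 43 smooth muscle channel genes, of which 15 had a peak. Kcnh2, Kcnab3, Kcnk2, Cacna1a, Cacna1b, Cacna1e, Cacna1f, Cacna1i, Cacna1s, Cacnb1, Kcnip4, Trpc4ap, Trpm3 and Cacna2d3 were named after their values were seen. Genes, lists and tests were chosen with earlier results of these data known. Alternatives were a score threshold, lists of equal length, other gene assignment, peak classes, overlap, a replicate block and leaving out each list. Python 3.11.15, pandas 2.3.3, numpy 2.4.6, scipy 1.17.1 and matplotlib 3.10.9 were used, and the code was tested on simulated data.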

Additional observations from a re-analysis of the deposited data

How the results depend on the processing

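No test passed its threshold as reported or under any alternative after adjustment. With so few lists no test could have passed alone, so this outcome was nearly fixed by the design. The sign changes listed here are of differences within the spread of the lists. For peaks at or above the median score of their list, the share of peaks on channel genes changed sign in GFP OE Pi against Pi (0.197 points) and in OE against unmodified lists (0.134), the share of genes in OE against unmodified lists (-0.052), and the intron excess in Pi against Ctrl (-0.352); 10 channel genes kept a peak, 0 were higher in Pi than in Ctrl, and in GFP OE Pi against Pi 1 was higher and 1 lower. With lists cut to 2572 peaks, the share of genes was 0.0592 points for THOC5 OE Pi against GFP OE Pi and -0.00945 for GFP OE Pi against Pi, 0 channel genes were higher in Pi than in Ctrl, 1 was higher in THOC5 OE Pi than in GFP OE Pi and 0 lower in GFP OE Pi than in Pi. By the nearest gene, the share of peaks was 0.0919 in Pi against Ctrl, the share of genes 0.213 in Pi against Ctrl, 0.112 in THOC5 OE Pi against GFP OE Pi and -0.0631 in GFP OE Pi against Pi, the intron share -3.04 and its excess -6.43 in GFP OE Pi against Pi, and 1 gene was lower there. In exons and UTRs alone, where no intron share exists, the share of peaks was -0.102 in THOC5 OE Pi against GFP OE Pi, the share of genes 0.0819 in Pi against Ctrl, -0.0113 in GFP OE Pi against Pi and -0.0244 in OE against unmodified lists, 1 gene was higher in Pi than in Ctrl, 0 in THOC5 OE Pi than in GFP OE Pi and 1 lower in GFP OE Pi than in Pi, and 2 sites were shared by all lists in place of 8 (5 where 50% of both peaks had to overlap). The causes of these shifts were not tested, and no share of all genes was computed beside the counts in these settings.

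Leaving out each list in turn gave, for the share of peaks, -0.188 to 0.0699 in Pi against Ctrl, -0.0253 to 0.0929 in THOC5 OE Pi against GFP OE Pi, and for the share of genes -0.091 to 0.0388 in Pi against Ctrl, -0.0347 to 0.0105 in THOC5 OE Pi against GFP OE Pi, -0.00776 to 0.0659 in GFP OE Pi against Pi and -0.00735 to 0.0359 in OE against unmodified lists. Counts of genes ran from 2 to 6 higher and 3 to 7 lower in Pi against Ctrl, 4 to 8 and 0 to 1 in THOC5 OE Pi against GFP OE Pi, 0 to 4 and 2 to 7 in GFP OE Pi against Pi, and 0 to 2 and 0 to 1 in OE against unmodified lists. With a list of a compared condition left out, fewer lists stand on a side and the rule is easier to meet. The counts of genes could therefore only stay or rise. No share of all genes was computed beside them, so their upper ends are not read as differences between conditions. Differences between replicates 1 and 2 correlated between conditions at -0.118 to 0.0809. These values gave no sign that the replicate numbers pair the lists, and cannot show that they do not. With a replicate block the differences were as reported, for example -0.150 points in the share of peaks in OE against unmodified lists (exact permutation p = 0.167) and 13.9 points in the intron share (exact permutation p = 0.111), and it changed no call.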

Other observations

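The column of the nearest gene start would have given another account of these genes. For 167 of the 417 channel gene peaks (40.0%) it names another gene, against 38.4% of the peaks on all genes. Of the Itpr1 peaks, 77 are named for Mir7661, of the Cacna1c peaks 26 for Ankrd26, and of the Cacna1g peaks 18 for Abcc3. In the other direction, 40 peaks are named for a channel gene but lie in another gene or, for the 3 named for Atp2b1, in its own promoter class, and 13 channel genes are named in no other way. They include Kcnj13, an inward rectifier, with 9 peaks in 7 lists that lie in Gigyf2, and Kcnt1, a sodium-activated potassium channel, with 6 peaks in 6 lists that lie in Camsap1. In the same way 5 peaks in 4 lists named for Cacna1b lie in Ehmt1. By nearest gene, 34 channel genes have a peak in place of 23, and 21 genes are in both sets.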
